A study of Mus musculus with 3 samples.

Results

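The cytosolic ribosomal protein genes were followed across regulatory T cells (Tregs) sorted from mouse epidermis, dermis and lymph node. Members were taken by symbol: Rpsa, every Rpl or Rps symbol followed by a digit, and Rplp followed by a digit, leaving out pseudogene rows marked -ps and the Rps6k kinases. The rule found 87 of the 27998 genes in the table, and 83 of them reached 50 counts per 1000000 UMIs (CPM) in at least 1 library: 33 of the small subunit, 47 of the large subunit and 3 of the stalk. A UMI is a molecular barcode that counts 1 captured transcript. Rpl6l lay just inside the limit, with 21.8 CPM in epidermis, 15.8 in dermis and 55.4 in the lymph node, and Rps19bp1 lay just outside, with 30.4 CPM in epidermis, 26.6 in dermis and 37.7 in the lymph node. Rps19bp1 encodes a protein that binds ribosomal protein S19 and is not itself a ribosomal protein. Rpl39l peaked at 4.54 CPM, Rpl3l at 0.03 CPM, and Rpl10l had no UMI in any library. Rpl6l, which GENCODE annotates as a processed pseudogene, passed only through lymph node, and Rpl7l1 passed through epidermis and lymph node.

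A ribosome is built from a small and a large subunit, each a core of ribosomal RNA dressed with many proteins. Most of these proteins are needed in equal numbers. Their mRNAs are among the most abundant of a cell, and many begin with a run of pyrimidines, the terminal oligopyrimidine (TOP) tract, through which mTORC1 and LARP1 set how well they are translated. T cells raise ribosome production when they leave rest and enter the cell cycle, while resting lymphocytes hold little RNA, of which ribosomal protein mRNA is a large part.

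Each tissue was represented by 1 library, all from mice of the strain named FOXP3-EGFP (C.Cg-Foxp3tm2Tch/J), a line whose Tregs carry EGFP reported from the Foxp3 locus. Epidermal and dermal cells came from skin split with thermolysin, with collagenase used on the dermis, and were captured with the 10x 3′ v3 kit. Lymph node cells came from mashed tissue and were captured with the v2 kit. In all 3 libraries the sorted cells were positive for GFP, CD4, CD3 and CD45. The sources used here do not give the number, sex and age of the animals. Because skin and lymph node differed in kit and in handling as well as in tissue, these cannot be told apart, and with 1 library per tissue there is no replicate spread and no test between tissues. The intervals given are 95% intervals that cover counting error only.

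After cells with under 500 UMIs or over 10% mitochondrial UMIs were left out, 297 epidermal, 875 dermal and 9400 lymph node cells remained, holding 2205131, 4630059 and 32906839 UMIs. Their median depth was 6671, 4726 and 3022 UMIs per cell. Each library carried every gene of the T cell list (Cd3d, Cd3e, Cd3g, Cd4) and of the Treg list (Foxp3, Il2ra, Ctla4, Ikzf2, Tnfrsf18), and the sum of the Treg list was 3624 CPM in epidermis, 5197 CPM in dermis and 1656 in the lymph node. Of the 10 keratinocyte markers, 2, 1 and 4 were at 0 in epidermis, dermis and lymph node, and their sum was 72.6, 183 and 28.2 CPM. Of the 13 dendritic cell, Langerhans cell and macrophage markers 3, 5 and 4 were at 0, and their sum of 469, 508 and 237 CPM was mostly Cd74 (365, 360 and 182 CPM). Of the 6 CD8 T and NK cell markers 2, 3 and 1 were at 0, with a sum of 199, 101 and 74.7 CPM. The other 6 marker lists summed to at most 85.3 CPM in any library. Their part in the results was not tested. Some epidermal and dermal cells carried Y-linked UMIs without Xist (101 and 55 cells), while 0 lymph node cells did.

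The epidermal and dermal libraries shared 43 cell barcodes, whereas dermis and lymph node shared 1 and epidermis and lymph node none. In 39 of these pairs one copy held at least 5000 UMIs and the other between 4.22% and 8.60% of that number. A median of 98.9% of the genes detected in the shallow copy were also detected in the deep copy. The deep copy was epidermal in 30 pairs and dermal in 9. The 4 other pairs held between 507 and 747 UMIs in both libraries. The 30 deep epidermal copies carried 24.1% of all epidermal UMIs, with a median of 15560 UMIs per cell. Removing every such barcode left 255 epidermal and 834 dermal cells, and results that moved are given both ways.

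The bases around the RefSeq transcription start are shown for members at the ends of the rankings below, and for Rps27 and its near copy Rps27rt. Each line gives 10 bases before the annotated start and 20 from it on, 5′ to 3′ on the strand of the gene, from RefSeq on GRCm38.p6, with the searched pyrimidine motifs in capitals.
Rps26, chr10:128626487-128626516, minus strand: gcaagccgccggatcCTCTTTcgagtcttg
Rpl28, chr7:4792955-4792984, plus strand: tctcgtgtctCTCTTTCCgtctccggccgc
Rpsa, chr9:120127756-120127785, plus strand: ttatttaaggacgtcatttccggccgcccg
Rps10, chr17:27635225-27635254, minus strand: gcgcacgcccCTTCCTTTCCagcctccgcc
Rpl38, chr11:114668570-114668599, plus strand: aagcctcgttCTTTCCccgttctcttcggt
Rps21, chr2:180257369-180257398, plus strand, first of its 2 annotated starts: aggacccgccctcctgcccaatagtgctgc
Rps27, chr3:90213629-90213658, minus strand: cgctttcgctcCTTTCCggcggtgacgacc
Rps27rt, chr9:114982720-114982749, minus strand: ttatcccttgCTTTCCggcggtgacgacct

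The search covered both strands from 30 bases before to 30 after the start. It looked for CTTTCC and, as a variant of it, CTTTTC. It also looked for the run CTCTTT and, in the last place, for CTTCCT. These motifs can overlap one another. Promoters of 62 of the 83 members were in the RefSeq table. On the strand of the gene, 29 of the 62 members (46.8%) held at least 1 of these motifs, beside 12.3% of all 27025 genes in the table. On the other strand the shares were 16.1% of members and 12.1% of all genes. Members with and without a motif had close ratios between tissues: the median log2 ratio of epidermis over dermis was 0.44 for the 29 with a motif and 0.40 for the 33 without. For epidermis over lymph node the medians were -0.53 and -0.48, and for dermis over lymph node -0.998 and -0.91. Rpsa stood near the top of the ranking for epidermis over dermis with no motif, and Rpl38 at the bottom with one.

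Ribosomal protein transcripts made up 25.4% of all UMIs in epidermis (25.3 to 25.5), 19.0% in dermis (18.97 to 19.04) and 36.2% in the lymph node (36.1 to 36.2). The epidermal share was 1.34-fold the dermal one and 1.42-fold lower than that of lymph node, and the dermal share was 1.90-fold lower than that of lymph node. The 3 intervals did not overlap. Without the shared barcodes the shares were 25.9% in epidermis and 18.9% in dermis. Cells with an Xist UMI but none from a Y-linked gene gave 23.5% in epidermis, 18.6% in dermis and 35.5% in the lymph node, so the order stayed. Cells with Y-linked UMIs and no Xist gave 26.2% in epidermis and 21.6% in dermis. Both subunits took part: the small subunit gave 11.4% of UMIs in epidermis, 8.39% in dermis and 16.6% in the lymph node, and the large subunit with the stalk 14.0%, 10.6% and 19.5%. Small-subunit UMIs per large-subunit UMI were 0.818 in epidermis, 0.790 in dermis and 0.851 in the lymph node.

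**Figure D1:**
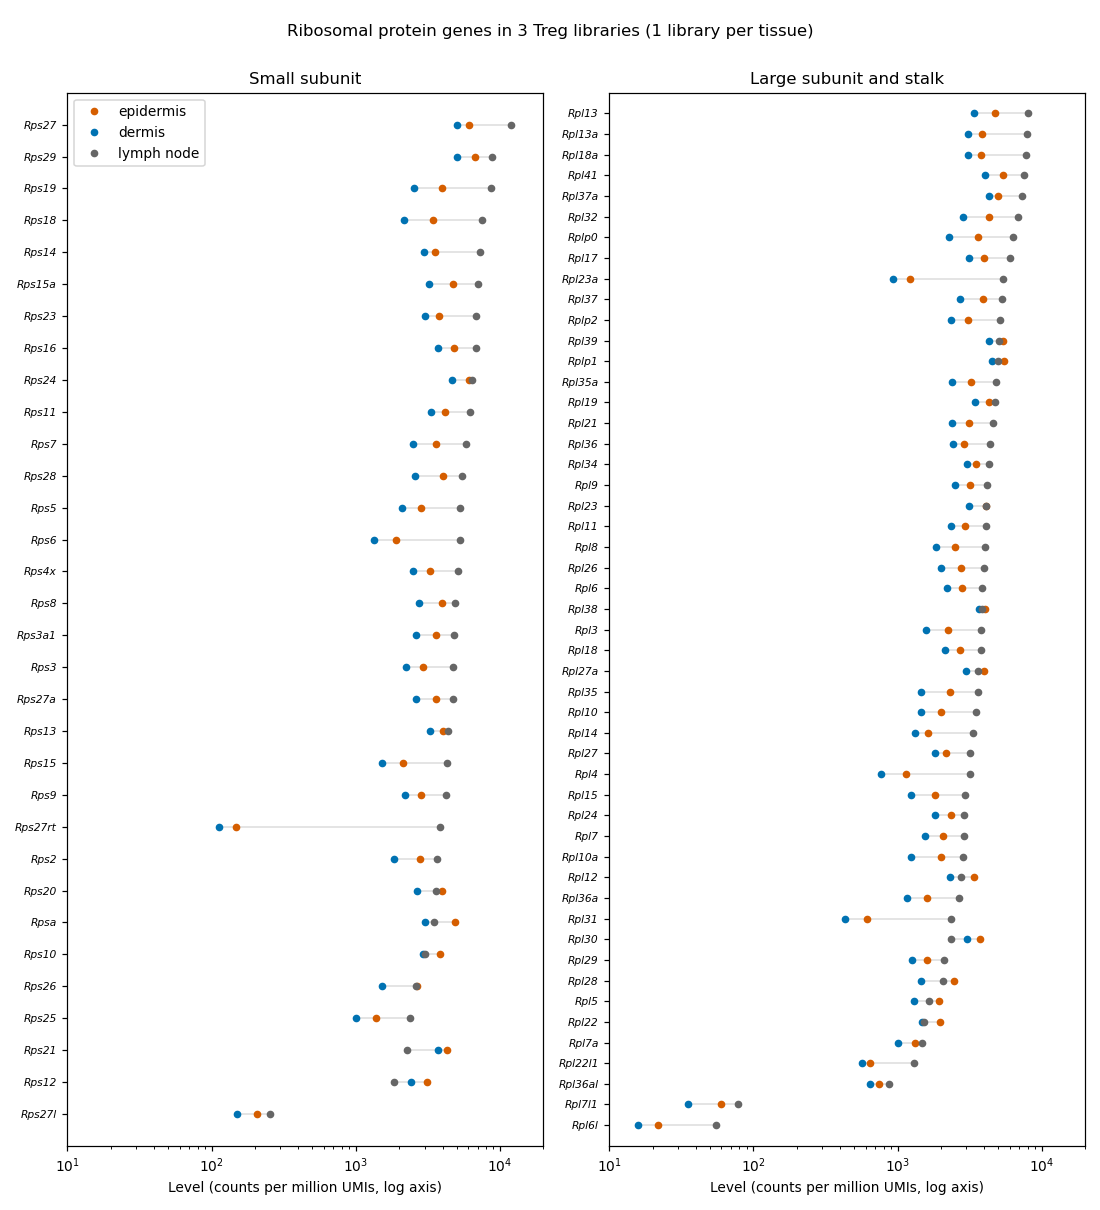
Level of 82 ribosomal protein genes (CPM, log axis) in the epidermal, dermal and lymph node library, 1 point per library, small subunit on the left and large subunit with stalk on the right, ordered by the lymph node level. For most genes the dermal point is lowest and the lymph node point highest. For Rps21, Rps12 and Rpl30 the lymph node point is lowest and the epidermal point highest. Rps27rt spans from 112 CPM in dermis to 3864 CPM in lymph node.

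Between the skin layers the genes differed as a block. Of the members with at least 50 CPM in epidermis or dermis, which leaves out Rpl6l, 82 of 82 were higher in epidermis, each with a counting interval above a ratio of 1. Their median log2 ratio was 0.40, with quartiles of 0.33 and 0.54, while the 3064 genes measured at this level had a median of 0.01 with quartiles of -0.30 and 0.30. Of these 3064 genes, 51.4% were higher in epidermis. The spread was narrow: 68 of the 82 members lay within 0.2 of their median, beside 1072 of the 3064 genes for the median of all genes. These spreads are not matched for level. Genes near 50 CPM carry more counting error than most members, which widens the spread of all genes. No member reached 2-fold in either direction, which 2.71% of all genes did upward and 4.54% downward, and 13 of 82 were at least 1.5-fold higher, beside 8.94% of all genes. The direction held under every scaling tried, and 81 of 82 stayed above 0 when cells were thinned to 1500 UMIs, with Rpl36al the exception. Without shared barcodes the median was 0.45 and 82 of 82 remained above 0.

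The widest differences between skin layers were small ones. Rps26, which lies at the mRNA exit channel of the small subunit, had 2678 CPM in epidermis and 1510 CPM in dermis, a log2 ratio of 0.83 (0.78 to 0.88). Rpl28 of the large subunit had 2477 CPM in epidermis and 1459 CPM in dermis, a log2 ratio of 0.76. Both large-subunit Rpl10a (1998 CPM in epidermis, 1241 CPM in dermis) and Rpsa, the laminin receptor precursor that doubles as a small-subunit protein (4863 CPM in epidermis, 3028 CPM in dermis), showed a 1.61-fold higher level in epidermis. Rpl7l1, a paralog of Rpl7 with a role in ribosome assembly, had 59.4 CPM in epidermis and 35.2 CPM in dermis, and its log2 ratio of 0.75 was 0.32 without the shared barcodes.
At the lower end, Rpl38 had 4043 CPM in epidermis and 3662 CPM in dermis, a log2 ratio of 0.14 (0.11 to 0.18). Rps21, Rpl22l1, Rpl36al, Rpl34 and Rpl37a followed, with log2 ratios between 0.19 and 0.22. The members of the fixed set that are not named above sat between these ends. Rplp0, which anchors the stalk, had 3604 CPM in epidermis and 2279 CPM in dermis (log2 0.66), ahead of the other stalk proteins Rplp1 (0.29) and Rplp2 (0.39). Rpl5 and Rpl11, which bind 5S RNA and can hold Mdm2, had log2 ratios of 0.56 and 0.33, and Rps6, the mTORC1-pathway phosphorylation target, 0.50.

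**Figure D2:**
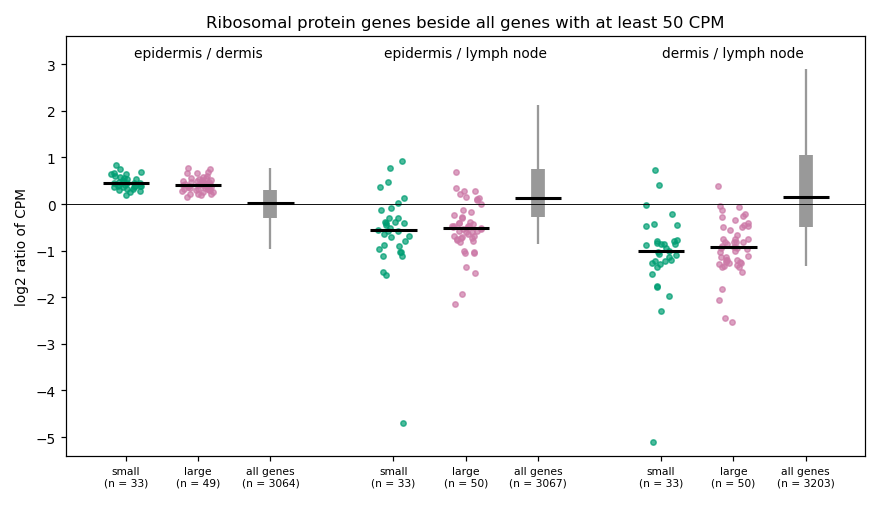
log2 ratios of CPM for the 3 pairs of libraries. Points are small-subunit (green) and large-subunit with stalk (pink) genes that reach 50 CPM in either library, black lines are medians, and the grey bars give the quartiles and the 5th to 95th percentile of all genes at that level. The members cluster at 0.40 for epidermis over dermis and spread more widely, mostly below 0, against lymph node.

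Against lymph node the members spread out. For epidermis over lymph node the median log2 ratio of the 83 members was -0.52, with quartiles of -0.78 and -0.26, beside a median of 0.14 for the 3067 genes at this level. 68 members were lower in epidermis, beside 42.03% of all genes, and 15 were higher. The intervals of 2 members included a ratio of 1. 14 of 83 were at least 2-fold lower in epidermis (16.9%, beside 3.42% of all genes) and 0 were at least 2-fold higher (18.6% of all genes). At 1.5-fold, 34 members were lower and 3 higher, together 37 of 83, beside 41.5% of all genes in either direction. Scaling moved this comparison: TMM put the median of all genes at -0.34 and median-of-ratios at -0.23, which left 3 and 4 members above 0. With scaling to genes other than members and mitochondrial ones, 9 members lay above 0 and the median of all genes was -0.06. A scaling moves all genes of a library alike, so the distance of -0.66 between the members' median and that of all genes does not depend on it, but the count past 2-fold does. With TMM 42 members were at least 2-fold lower in epidermis (13% of all genes), with median-of-ratios 31 (9.42% of all genes), and with scaling to the other genes 20 (6.1% of all genes). Without the shared barcodes the median stayed at -0.52, with 10 members at least 2-fold lower in epidermis and 1, Rps21 at 1.02, at least 2-fold higher.

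For dermis over lymph node the difference was larger. The median log2 ratio was -0.95, with quartiles of -1.25 and -0.62, beside 0.15 for the 3203 genes at this level. 80 of 83 members were lower in dermis, beside 44.6% of all genes. 38 of 83 were at least 2-fold lower in dermis (beside 9.55% of all genes) and 0 were at least 2-fold higher (26% of all genes). At 1.5-fold, 62 were lower and 1 higher, together 63 of 83, beside 58.5% of all genes in either direction. The small subunit had 17 of 33 genes at least 2-fold lower in dermis and the large subunit with the stalk 21 of 50. The 3 members above 0 were Rps21, Rps12 and Rpl30, and they stayed above 0 under TMM and median-of-ratios scaling, which moved the median of all genes to -0.23 and -0.11. With these scalings 62 and 61 members were at least 2-fold lower in dermis, beside 20.6% and 16.6% of all genes, and 61 with scaling to genes other than members and mitochondrial ones, beside 18.4%. Epidermis over lymph node and dermis over lymph node share the lymph node library, so they are not independent views of it.

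The members furthest below lymph node were in part genes with near copies. Rps27rt, an Rps27-like gene on chromosome 9, had 148 CPM in epidermis, 112 CPM in dermis and 3864 CPM in lymph node, which is 26.1-fold lower in epidermis and 34.5-fold lower in dermis. Of the windows of 90 bases in the last 300 bases of its transcript, 86.3% occur letter for letter in other annotated genes, Rps27 among them, and all of the Rps27 windows (100%) do. Rps27 itself, a zinc-finger protein of the small subunit, had 6115 CPM in epidermis, 5033 CPM in dermis and 12024 CPM in lymph node. Rps27rt made up 2.36% of the UMIs of the pair in epidermis (2.11 to 2.63), 2.18% in dermis and 24.3% in the lymph node. Summed over the pair, the level was 6263 CPM in epidermis, 5145 CPM in dermis and 15888 CPM in lymph node, 2.54-fold and 3.09-fold lower in epidermis and dermis. How reads were split between the 2 genes differs between the libraries as deposited, and the read length and alignment behind this are not stated in the labels or headers, so the value of Rps27rt alone is uncertain.
Rpl23a, beside the tunnel exit, had 1215 CPM in epidermis, 925 CPM in dermis and 5349 CPM in lymph node, 4.403-fold lower in epidermis and 5.79-fold lower in dermis, with 75.8% of its windows in other genes. Rps6 (80.1% shared) had 1909 CPM in epidermis, 1345 CPM in dermis and 5283 CPM in lymph node.

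Other members of this end had no shared window. The search read 1 annotated transcript per gene and counted exact matches only, so it can miss copies. Rpl13a and Rpl21, for example, had no shared window although a row marked -ps is named for each. Rpl31, also at the tunnel exit, had 614 CPM in epidermis, 432 CPM in dermis and 2355 CPM in lymph node, 3.83-fold lower in epidermis and 5.46-fold lower in dermis, and none of its windows occur in another annotated gene. Rpl4 had 1142 CPM in epidermis, 766 CPM in dermis and 3195 CPM in lymph node, and none of its windows are shared either. Across the members, 30 had no shared window, and their median log2 ratio was 0.41 for epidermis over dermis, -0.54 for epidermis over lymph node and -1.02 for dermis over lymph node. The 33 members with at least 50% of windows shared had medians of 0.40 (32 genes), -0.57 and -1.08. The 20 members between these had medians of 0.42, -0.44 and -0.87. At least 2-fold lower in dermis than in lymph node were 15 of the 30, 5 of the 20 and 18 of the 33, beside 9.55% of all genes.

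At the other end stood members higher in skin. Rps21, a small-subunit protein at its solvent side, had 4267 CPM in epidermis, 3735 CPM in dermis and 2256 CPM in lymph node, log2 ratios of 0.92 (0.89 to 0.95) for epidermis and 0.73 (0.70 to 0.75) for dermis over lymph node. Of its windows 0.474% are shared. Rps12 had 3144 CPM in epidermis, 2428 CPM in dermis and 1833 CPM in lymph node, and Rpl30 had 3754 CPM in epidermis, 3039 CPM in dermis and 2331 CPM in lymph node. Other genes hold 87.7% of the Rps12 windows and 77.3% of the Rpl30 windows, so the values of these 2 are less certain. These 3 were the ones higher than lymph node in both skin libraries. Rpsa, Rps10 and Rpl22 stood above lymph node in epidermis (log2 0.47, 0.36 and 0.35), but Rps10 and Rpl22 were not under TMM or median-of-ratios scaling, nor was Rpsa under TMM. In dermis all 3 lay slightly below lymph node, at -0.21, -0.03 and -0.05, and Rps10 lay above it with a mitochondrial limit of 5% and in cells with a Foxp3 UMI.

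The fixed set of members followed the block against lymph node, with exceptions. Rplp0 had 3604 CPM in epidermis, 2279 CPM in dermis and 6299 CPM in lymph node, 1.75-fold and 2.76-fold lower in epidermis and dermis. Rplp2 was 1.67-fold lower in epidermis and 2.18-fold lower in dermis. Rplp1, their partner in the stalk, had 5515 CPM in epidermis, 4522 CPM in dermis and 4963 CPM in lymph node, so the 3 stalk genes did not keep 1 ratio. Rpl5 and Rpl11, which enter the ribosome together, parted in the same way: in epidermis Rpl5 was 1.16-fold higher than in lymph node (lower under TMM and median-of-ratios scaling) and in dermis 1.27-fold lower, whereas Rpl11 was 1.40-fold and 1.76-fold lower. Rpl3, at the peptidyl transferase centre, Rpl10, which is added late in assembly, and Rpl13a were 1.71-fold, 1.75-fold and 2.05-fold lower in epidermis and 2.41-fold, 2.41-fold and 2.55-fold lower in dermis. Rps4x, Rps27a (made as a fusion with ubiquitin) and Rpl41, the shortest of the proteins, had log2 ratios of -0.64, -0.39 and -0.48 for epidermis over lymph node and -1.03, -0.85 and -0.91 for dermis over lymph node.

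Paralogs were compared as shares of their pair. Rpl22l1, which Rpl22 is known to hold down in mouse cells, gave 24.8% of the UMIs of the Rpl22 pair in epidermis (23.7 to 25.9), 27.5% in dermis (26.6 to 28.4) and 45.7% in the lymph node (45.4 to 46.0). The paralog differed more than Rpl22: Rpl22l1 had 646 CPM in epidermis, 562 CPM in dermis and 1291 CPM in lymph node, and Rpl22 had 1957 CPM in epidermis, 1481 CPM in dermis and 1535 CPM in lymph node. Copied sequence limits this pair too, since 54.5% of the Rpl22l1 windows occur in a predicted gene. Rpl36al gave 31.7% of the Rpl36a pair in epidermis, 35.8% in dermis and 24.8% in the lymph node. Rps27l, a p53 target in human cells, gave 3.29% of the Rps27 and Rps27l pair in epidermis, 2.88% in dermis and 2.09% in the lymph node. Without the shared barcodes its share was 2.09% in epidermis and 2.77% in dermis, so epidermis then lay below dermis. In the 30 deep epidermal copies of shared barcodes Rps27l stood at 396 CPM, against 148 CPM in epidermal cells whose barcode was not shared. Its log2 ratio of epidermis over dermis was 0.48, and 0.04 without the shared barcodes. The Rpl7l1 share of the Rpl7 pair was 2.78% in epidermis, 2.24% in dermis and 2.62% in the lymph node. Without the shared barcodes it was 1.96% in epidermis and 2.18% in dermis, so epidermis was then the lowest of the 3. Rpl39l, Rpl3l and Rpl10l, paralogs best known from testis or muscle, gave at most 0.105% of their pairs. Rpl3l and Rpl10l had 0 UMIs in the skin libraries, which, at 3 counts per library, allows up to 1.36 CPM in epidermis and 0.648 CPM in dermis.

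Cells differed widely in the share of ribosomal protein UMIs. The median cell had 20.9% in epidermis, 18.3% in dermis and 36.7% in the lymph node. The quartiles were 16.0% and 27.5% in epidermis, 14.97% and 21.2% in dermis and 31.2% and 41.1% in lymph node. Cells at or above 30% made up 19.5% of epidermal cells (58 of 297), 2.29% of dermal cells (20 of 875) and 79.4% of lymph node cells (7459 of 9400). Cells below 10% numbered 44 in epidermis, 71 in dermis and 21 in the lymph node. The epidermal library thus had a main body near the dermal one and a tail reaching the lymph node range, and both skin libraries had a group of cells below 10%. Without the shared barcodes 55 of 255 epidermal and 16 of 834 dermal cells were at or above 30%.

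**Figure D3:**
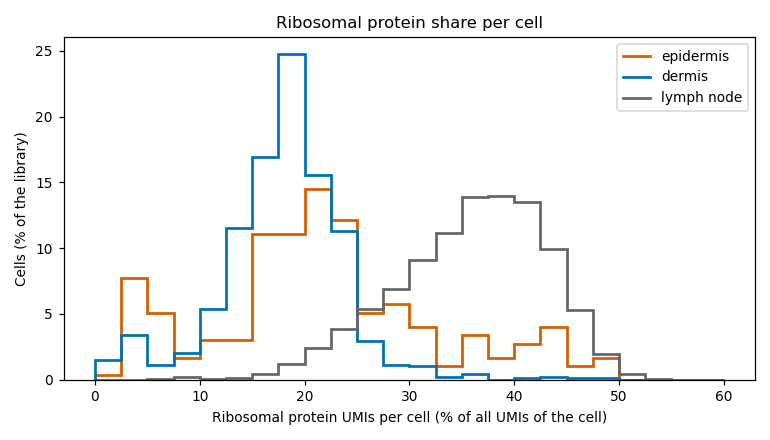
Ribosomal protein UMIs as a percentage of all UMIs of a cell (horizontal axis) against the percentage of cells of the library (vertical axis), in steps of 2.5 points, for epidermis, dermis and lymph node. The dermal cells peak around their median of 18.3%, the lymph node cells form a broad peak around 36.7%, and the epidermal cells have a main peak with a tail above 30%. Both skin libraries also hold a smaller group below 10%.

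This spread exceeded counting error. With each cell thinned to 1500 UMIs, which left out 35 epidermal, 47 dermal and 92 lymph node cells, the SD over cells was 10.3 points in epidermis, 5.59 in dermis and 7.08 in the lymph node. That is 9.42, 5.60 and 5.72 times the SD that sampling 1500 UMIs gives. The small-subunit and the large-subunit share of a cell went together, with Pearson's r of 0.958 over 262 epidermal cells, 0.902 over 828 dermal cells and 0.879 over 9308 lymph node cells. Cells of a library share its depth and handling, and both shares have the same 1500 UMIs as denominator.
Depth and mitochondrial share moved with the ribosomal protein share. In the lowest UMI quartile of epidermal cells (508 to 4376 UMIs) the median share was 7.43%, against 25.1% in the highest quartile. The lowest and highest quartiles had 15.4% and 19.7% in dermis and 32.6% and 37.4% in lymph node. Epidermal cells with 7.5% to 10% mitochondrial UMIs had a median of 3.98%, and those with 2.5% to 5% one of 21.8%. The part of depth or of mitochondrial share in the cell-to-cell differences was not tested.

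Cells were then split by whether they held a UMI of a gene that marks a Treg state, each cell at 1500 UMIs; the genes were grouped by their known roles after the values had been seen. In epidermis, cells with a UMI of a gene of resting or recirculating T cells had a higher ribosomal protein share, for 7 of 7 genes, by 3.37 to 13.9 points. The 31 cells with Ccr7, a chemokine receptor for entry into lymph nodes, averaged 32.3% ± 10.4 (SD over cells), and the 231 without it 22.3% ± 9.75. The 16 cells with Satb1, a chromatin organiser of T cells, averaged 36.6%, and the other 246 averaged 22.7%. The 23 with Bcl2, the survival factor, averaged 34.5%, against 22.5% in 239 without it. Tcf7, Lef1, S1pr1 and Klf2 ran the same way.
Epidermal cells with a UMI of an effector or tissue gene had a lower share, for 8 of 8 genes, with differences from -9.30 to -3.18 points. A lower share also went with immediate early or stress genes, for 6 of 7 genes and down to -6.99 points, and with the cell cycle genes Mki67 and Top2a, at -3.57 and -7.82 points. Cells with the interferon genes Ifit3 or Isg15 had a higher share, by 7.63 points on 5 cells and 3.77 points on 18 cells. The 118 cells with Itgae, the CD103 chain that binds E-cadherin on keratinocytes, averaged 18.4% ± 7.15, and the 144 without it 27.7% ± 10.7. The 49 cells with Areg, a growth factor of tissue repair, averaged 18.4% and the 213 without it 24.7%, while the 166 cells with Ctla4 averaged 20.6% and the 96 without it 28.6%. Foxp3 itself divided the cells less, with 21.7% in 31 cells with it and 23.8% in 231 without.

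In dermis the same genes barely divided the cells. Itgae-positive dermal cells averaged 17.4% (349 cells) and the others 18.9% (479 cells), and the 8 effector genes had differences from -1.99 to -0.18 points. Among cells with an Itgae UMI the epidermal and dermal means were thus 18.4% and 17.4%, and among cells without one 27.7% and 18.9%. Of the resting genes with a value in dermis, Satb1 had the widest difference, with 34.1% in 3 cells with it and 18.2% in 825 without. In lymph node the effector genes marked cells with a lower share for 7 of 8 genes, and Il2ra showed no difference: the 195 cells with Klrg1, a receptor of terminal effectors, averaged 26.1%, against 36.1% in 9113 without it. The 592 with Itgae averaged 29.04%, against 36.4% in 8716 without it. The 45 cells with Mki67, a marker of cycling cells, averaged 27.9%, against 36.0% in 9263 without it. Lymph node cells with a UMI of a resting gene had a share 0.23 to 2.77 points higher. A cell rich in ribosomal protein UMIs leaves fewer of 1500 for other genes. Calling each state gene in 800 UMIs of genes other than members and mitochondrial ones gave Itgae differences of -7.52 points in epidermis, -0.90 points in dermis and -6.52 points in lymph node, and Ccr7 differences of 13.8 points in epidermis, 1.96 points in dermis and 2.51 points in lymph node. Some other differences shrank under this call: in epidermis that of Ctla4 was -4.18 points and that of Foxp3 -0.13 points. Some grew, such as Bcl2 in epidermis (17.6 points) and Areg in lymph node (-8.66 points). Some small ones changed sign, such as Foxp3 (0.93 points) and Jun (0.75 points) in lymph node and Tnfrsf9 in dermis (0.27 points). In dermis 4 of 7 immediate early or stress genes then went with a lower share, against 6 before. Without the shared barcodes the epidermal Itgae means were 18.2% and 28.4%, and the Ccr7 means 33.8% and 22.6%.

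**Figure D4:**
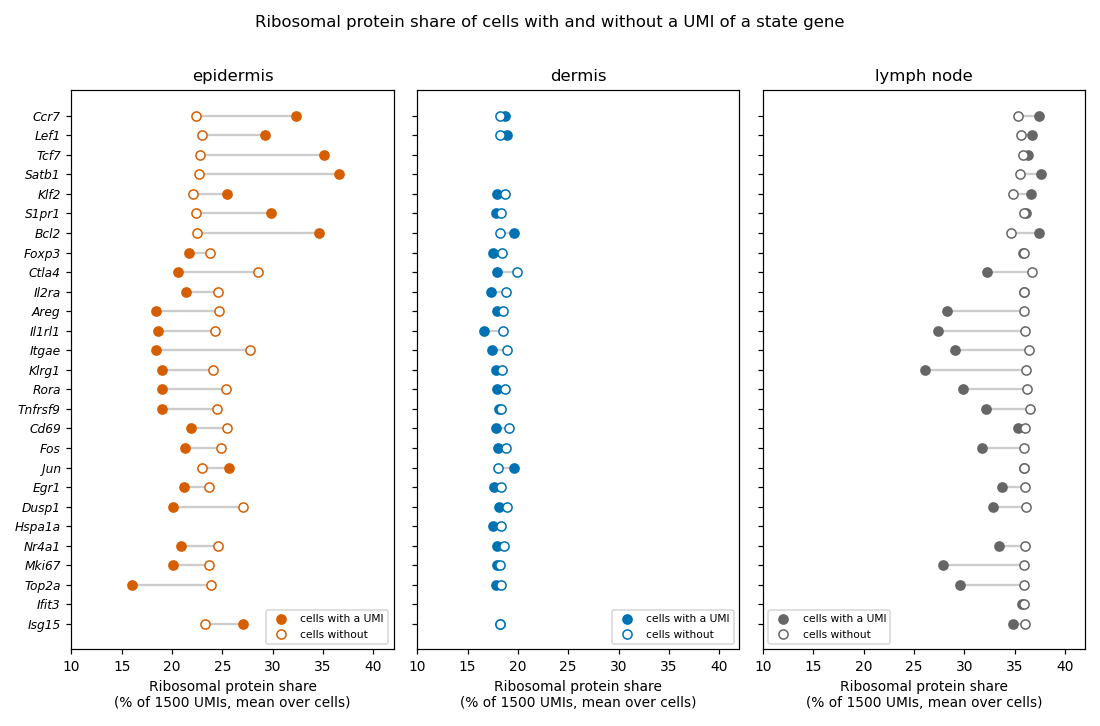
Mean ribosomal protein share of cells thinned to 1500 UMIs (horizontal axis, %), for cells with a UMI of each state gene (filled) and without (open), in epidermis, dermis and lymph node; genes with under 10 positive cells in a library are not drawn there. In epidermis Ccr7 to Bcl2 sit to the right and Ctla4 to Tnfrsf9 to the left of their open points, and in dermis the points of each drawn pair differ by under 2 points.

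Other genes of translation were measured beside the members. Fau encodes a ribosomal protein as a fusion with a ubiquitin-like protein, and its symbol lies outside the rule. It had 4944 CPM in epidermis, 4616 CPM in dermis and 5104 CPM in lymph node. Elongation factors had medians of 0.40, -0.40 and -0.87 for epidermis over dermis, epidermis over lymph node and dermis over lymph node (6, 7 and 7 genes). These medians lay near those of the members, but single factors differed. Eef1a1, the most abundant, had log2 ratios of -0.05 for epidermis and -0.37 for dermis over lymph node. Those of Eef1b2 were 0.36 and -0.23. Eef1g, part of the complex that recharges elongation factor 1, had 414 CPM in epidermis, 255 CPM in dermis and 1203 CPM in lymph node. Eef2, the translocase, had 931 CPM in epidermis, 731 CPM in dermis and 1776 CPM in lymph node. Initiation factors had medians of 0.27, -0.30 and -0.51 (26, 27 and 27 genes), with 4 of 27 at least 2-fold lower in dermis than in lymph node (9.55% of all genes). These were Eif3l, Eif3g, Eif3e and Eif3k, which encode subunits of the eIF3 scaffold. Of the other eIF3 genes, Eif3a and Eif3c lay above lymph node in dermis, with log2 ratios of 0.71 and 0.35.
Mitochondrial ribosomal proteins, which serve a separate ribosome, were higher in epidermis than in dermis for 34 of 36 genes (median 0.47), beside 51.4% of all genes. In dermis 10 of 41 were at least 2-fold lower than in lymph node (median -0.75), beside 9.55% of all genes. Assembly factors had medians of 0.33, -0.17 and -0.71 (14, 19 and 17 genes). Nhp2, a subunit of the particles that place pseudouridine in ribosomal RNA, had 64.8 CPM in epidermis, 29.2 CPM in dermis and 110 CPM in lymph node. Lyar, a nucleolar protein, had 53.5 CPM in epidermis, 25.9 CPM in dermis and 48.4 CPM in lymph node. These were the 2 of 14 assembly genes at least 2-fold higher in epidermis than dermis (2.71% of all genes), and both met the 50 CPM limit of this comparison only through epidermis.
The 8 other TOP mRNAs measured had medians of 0.37, 0.01 and -0.27. In dermis 5 of 8 were lower than in lymph node, beside 44.6% of all genes. These were Npm1, Naca, Btf3, Pabpc1 and Hnrnpa1, with log2 ratios of -0.96, -0.64, -0.64, -0.42 and -0.12. The 3 higher in dermis were Nap1l1 (0.28), Gnb2l1 (0.04) and Tpt1. Tpt1, whose mRNA is a standard example of a TOP transcript, had 8194 CPM in epidermis, 7478 CPM in dermis and 3726 CPM in lymph node.

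**Figure D5:**
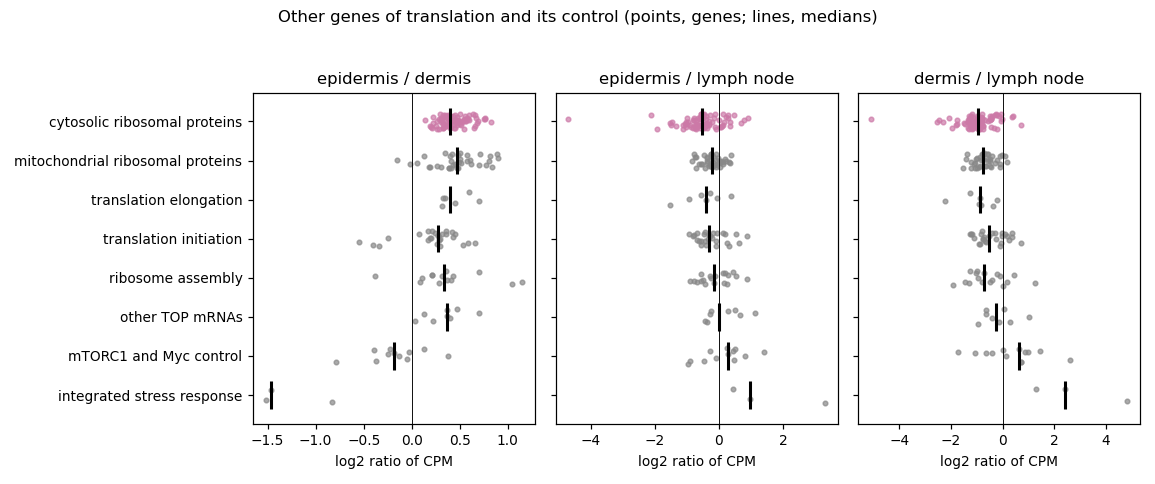
log2 ratios of CPM (horizontal axis) for the cytosolic ribosomal protein genes (pink) and 7 other gene lists of translation and its control (grey), for the 3 pairs of libraries; each point is a gene that reaches 50 CPM in either library and black lines are medians. The medians for elongation, initiation, ribosome assembly and mitochondrial ribosomal proteins lie on the same side of 0 as that of the members. The 3 measured genes of the integrated stress response lie on the other side of 0 in each panel.

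As a list, regulators of ribosome production showed other patterns than the members. Of the 11 mTORC1 and Myc genes measured between the skin layers, 9 were lower in epidermis (median -0.18), beside 48.6% of all genes. Against lymph node the list had medians of 0.27 for epidermis (12 genes) and 0.65 for dermis (13 genes). Myc, which drives ribosome production, had 27.7 CPM in epidermis, 16.0 CPM in dermis and 52.3 CPM in lymph node. This is the order of most members, and Myc, under 50 CPM in both skin libraries, is not among the 11. Mxi1, a Myc antagonist, ran the other way with 39.9 CPM in epidermis, 68.9 CPM in dermis and 11.2 CPM in lymph node. Larp1, which binds TOP mRNAs, had 53.5, 54.4 and 20.2 CPM. The integrated stress response list had 3 of 12 genes at this level, and all 3 were lowest in lymph node and highest in dermis. Ppp1r15a, the phosphatase subunit that ends the response, had 141 CPM in epidermis, 404 CPM in dermis and 14.2 CPM in lymph node. Atf4, its transcription factor, had 84.8 CPM in epidermis, 234 CPM in dermis and 43.6 CPM in lymph node. Their part in the ribosomal protein differences was not tested.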

How the data were processed

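The authors deposited 1 matrix per tissue with UMI counts, not normalized, for each gene in each barcode; whole numbers were checked in all 3. Per the submitters' processing notes the reads were processed with Cell Ranger on mm10; the file headers give version 4.0.0 for the skin libraries, and for lymph node no version is given in the sources used here. Deposited barcodes numbered 360 (epidermis), 1077 (dermis) and 9419 (lymph node); 63, 202 and 19 had over 10% mitochondrial UMIs. No doublet caller was run.

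UMIs were summed over kept cells and divided by the total of all genes (CPM). Ratios carry 95% exact binomial (Clopper-Pearson) intervals, which cover counting error only, and were tested on simulated data. A ratio was called at 2-fold where either library reached 50 CPM. Members and lists were chosen with earlier results of these data known. Named were, per comparison, the 6 highest and 6 lowest members, a fixed set, paralog pairs, members nearest the 50 CPM limit and up to 4 genes per list; the values of some genes are not reported here. Alternatives were other cell filters, thinning, means over cells, TMM (edgeR 4.0.16) and median-of-ratios scaling, other limits, and, chosen after seeing the data, leaving out shared barcodes and members with shared windows. Windows were matched between GENCODE vM21 transcripts. Python 3.11.15 and R 4.3.3 were used.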

Additional observations from a re-analysis of the deposited data

Results flagged for a closer look

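Rows outside the rule, named for pseudogenes of members (-ps in the symbol, 16 rows), carried signal. Their levels summed to 411 CPM in epidermis, 223 CPM in dermis and 2568 CPM in lymph node, above what a count of 0 allows in each library. The highest was Rpl9-ps6 in epidermis with 74.8 CPM, Rpl27-ps3 in dermis with 54.4 CPM and Rpl23a-ps3 in lymph node with 761 CPM.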

How the results depend on the processing

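No paired analysis was possible because each tissue had 1 library. With 1 library per tissue and another kit for lymph node, differences between tissues have no replicate check, and in skin depth limits most the members with the fewest UMIs (Rpl6l, Rpl7l1, Rps27rt and Rps27l). The members' median log2 ratio kept its sign in 17 of 17 alternatives in each comparison, 3 of which change which members enter and not their ratios, from 0.30 to 0.52 for epidermis over dermis, from -1.0 to -0.50 for epidermis over lymph node and from -1.32 to -0.91 for dermis over lymph node. Among the 93 named values, none that was at least 2-fold changed sign in these alternatives. Such wide ratios leave little room for a change, so this says little about the smaller ones. Of the named values under 2-fold, Rpl39, Rplp1, Rpl5, Rpl22, Rps10 and Rpsa changed sign for epidermis over lymph node in at least 1 alternative. Rps10 did so for dermis over lymph node and Rpl36al for epidermis over dermis. The median log2 ratios that moved beyond counting error are given in the order epidermis over dermis, epidermis over lymph node, dermis over lymph node. They were 0.30, -1.0 and -1.32 with TMM, 0.30, -0.89 and -1.21 with median-of-ratios, 0.52, -0.72 and -1.26 scaled without members and mitochondrial genes, 0.30, -0.72 and -0.99 as means over cells, and 0.36, -0.61 and -1.0 with cells thinned to 1500 UMIs. Cells with an Xist UMI but none from a Y-linked gene gave 0.34 for epidermis over dermis and -0.62 for epidermis over lymph node, and no mitochondrial limit gave -0.58 for epidermis over lymph node and -1.01 for dermis over lymph node. Epidermis over dermis was 0.45 without barcodes found in both libraries. Dermis over lymph node was -0.91 with at most 5% mitochondrial UMIs, -0.92 in cells with a Foxp3 UMI, -0.99 without cells above the 95th UMI percentile and -1.02 in members with no shared window. The cause was not tested.

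Members past 2-fold numbered 14 of 83 for epidermis over lymph node, all lower, beside 3.42% of all genes. They numbered 42 with TMM (13% of all genes), 31 with median-of-ratios (9.42%) and 7 of the 30 members with no shared window. At 1.5-fold in either direction they numbered 37 of 83, beside 41.5% of all genes. For dermis over lymph node they numbered 38 (9.55% of all genes), against 62 with TMM (20.6%), 61 with median-of-ratios (16.6%) and 61 scaled without members (18.4%). They numbered 15 of the 30 with no shared window. At 1.5-fold in either direction they numbered 63 of 83, beside 58.5% of all genes. For epidermis over dermis they numbered 0, beside 2.71% of all genes upward and 4.54% downward. With thinning they numbered 1 (Rpl7l1). At 1.5-fold they numbered 13, all higher, beside 8.94% of all genes.

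The share of UMIs moved beyond its narrow counting interval in most alternatives, and epidermis stayed between dermis and lymph node in each. In the order epidermis, dermis, lymph node it was 25.8%, 19.5% and 36.2% (36.25) with at most 5% mitochondrial UMIs, 24.4%, 18.2% and 36.1% with no such limit, 25.6%, 19.1% and 36.2% with at least 1500 UMIs, 24.8%, 19.2% and 35.1% in cells with a Foxp3 UMI, 25.2%, 18.6% and 36.5% without cells above the 95th UMI percentile, 23.5%, 18.6% and 35.5% in those cells with Xist alone, 21.9%, 17.9% and 35.8% as means over cells, 23.5%, 18.3% and 35.9% thinned, and 26.4%, 19.9% and 37.0% without mitochondrial genes in the denominator. With the T cell gate it was 25.5% and 19.1% in epidermis and dermis, without shared barcodes 25.9% and 18.9%, and without only their shallower copies 19.0% (18.96) in dermis.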

Other observations

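Barcodes over the mitochondrial limit, which the results leave out, held few ribosomal protein UMIs: 5.004% of 112346 UMIs in epidermis, 5.56% of 298213 in dermis and 16.8% of 34659 in lymph node. The 30 deep epidermal copies of shared barcodes had 289 CPM of Mki67, against 19.3 CPM in epidermal cells whose barcode was not shared, and 54.5 CPM of Cd8a (29 UMIs) against 3.61 CPM. Their ribosomal protein share was 23.97%, against 25.9% in the other cells. Of the individual members, Rps27 was at 3799 CPM in them and at 6895 CPM in the other cells.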
